A study of Mus musculus with 9 samples.

Results

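The 44 genes described here encode the subunits of voltage-gated sodium channels (Scn genes), voltage-gated calcium channels (Cacn genes) and hyperpolarization-activated pacemaker channels (Hcn genes). They were taken from a table of 55367 gene symbols by name alone: every symbol made of Scn, a number and a or b, every symbol beginning Cacna, Cacnb or Cacng, and every symbol made of Hcn and a number. Of the 44, 27 had enough counts to be tested, among 15138 genes tested in all. The infarcted ventricle held less Scn4b, Scn4a and Cacna1s, less Cacna1c with Cacna2d1 and Cacnb2, and less Hcn2 with Hcn4. It held more Scn2a, Scn7a, Cacnb3, Cacna1d and Cacng7. Cardiomyocyte marker genes were lower there too, with a median log2 fold change of -1.61, beside -4.05 for Scn4b, -1.66 for Hcn2 and -1.16 for Cacna1c. No channel gene passed the test between treated and untreated infarcts, and neither did any other of the 15138 genes.

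These channels shape the cardiac action potential. The sodium channel opens first and drives the fast upstroke and its spread from cell to cell. L-type calcium channels then open, hold the plateau and admit the calcium that triggers contraction, while T-type calcium channels open at more negative voltages. Pacemaker channels open on hyperpolarization and carry the funny current of the sinus node. The pore of a sodium or calcium channel is a single large alpha subunit. Beta, alpha2delta and gamma subunits set how much of it reaches the membrane and how it gates.

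The samples were mouse left ventricle, with 3 RNA-seq libraries in each of 3 groups: sham-operated hearts (sham), hearts with a myocardial infarction (MI), and infarcted hearts of the BPD treatment group (MI+BPD). The series text dates the tissue to day 14 after infarction, and the labels name infarct core and peri-infarct tissue together. The labels give neither the strain, age or sex of the mice, nor the meaning of BPD or its dose. Sham hearts have no infarct, so a comparison with sham sets unlike parts of the ventricle side by side, and both such comparisons share the 3 sham libraries. The comparison of MI+BPD with MI shares its libraries with them in turn.

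Total counts ran from 14451410 to 19269072 per library, and no 2 libraries of a group agreed within sampling noise. Levels are in CPM, the read count of a gene relative to the size of its library, with trimmed mean of M values factors. A value with ± after a gene is its log2 fold change and standard error (SE). Among cell type markers, Myh6, Tnnt2 and the rest of 20 cardiomyocyte genes were abundant in sham and all fell in MI (median log2 fold change -1.61, where all tested genes had 0.07). Of 6 atrial genes, Sln and Bmp10 were at most 0.0599 and 0.0875 CPM in any library. Of the 4 tested, Nppa, which infarcted ventricle also expresses, rose by 5.67 ± 0.71, Myl4 by 1.76 ± 0.38 and Nr2f2 by 0.82 ± 0.14, and Myl7 did not pass (-0.39). All 10 fibroblast genes rose (median 4.24), from a summed 1250.4 to 1444 CPM in sham libraries to 16856 to 26336 in MI and 22699 to 24515 in MI+BPD. All 10 macrophage genes rose (median 1.58; sums of 400.3 to 478 CPM for sham, 820 to 1399 for MI and 1050.0 to 1386 for MI+BPD), as did 8 of 9 lymphocyte genes (median 3.07; 2.62 to 4.67, 7.69 to 53.8 and 6.53 to 9.96 CPM in the same order), while 6 of 10 endothelial genes fell (median -0.37; 1365 to 1595, 848 to 1083 and 968 to 1131 CPM). The mitochondrial share of counts was 34.8% ± 0.405 for sham, 13.8% ± 3.78 for MI and 20.3% ± 4.65 for MI+BPD (SD, n = 3). The part of these differences in the channel results was not tested. Over the cardiomyocyte list the mean log2 CPM was 11.5 ± 0.0135 for sham, 9.86 ± 0.443 for MI and 10.4 ± 0.291 for MI+BPD (SD, n = 3). Replicate 3 was the highest MI library (10.4) and replicate 1 the highest MI+BPD library (10.8). In bulk tissue, fewer cells of a type and less RNA per cell cannot be told apart.

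In MI against sham 20 of the 27 tested channel genes were called, 9 higher and 11 lower. The background was high: 68.9% of all tested genes were called in this comparison, 37.0% higher and 31.9% lower. The groups did not overlap for 20 of the 27 channel genes and for 74.4% of all genes. The members' median log2 fold change was -0.11. At least 2-fold changes were called for 6 higher and 10 lower channel genes, beside 20.9% and 13.1% of all genes. With library totals as the only scaling, values of 24 members rose by 0.7 to 0.75 and the all-gene median went from 0.07 to 0.81, so that 13 members were called higher and 9 lower, beside 69.3% and 11.7% of all genes.

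**Figure D1:**
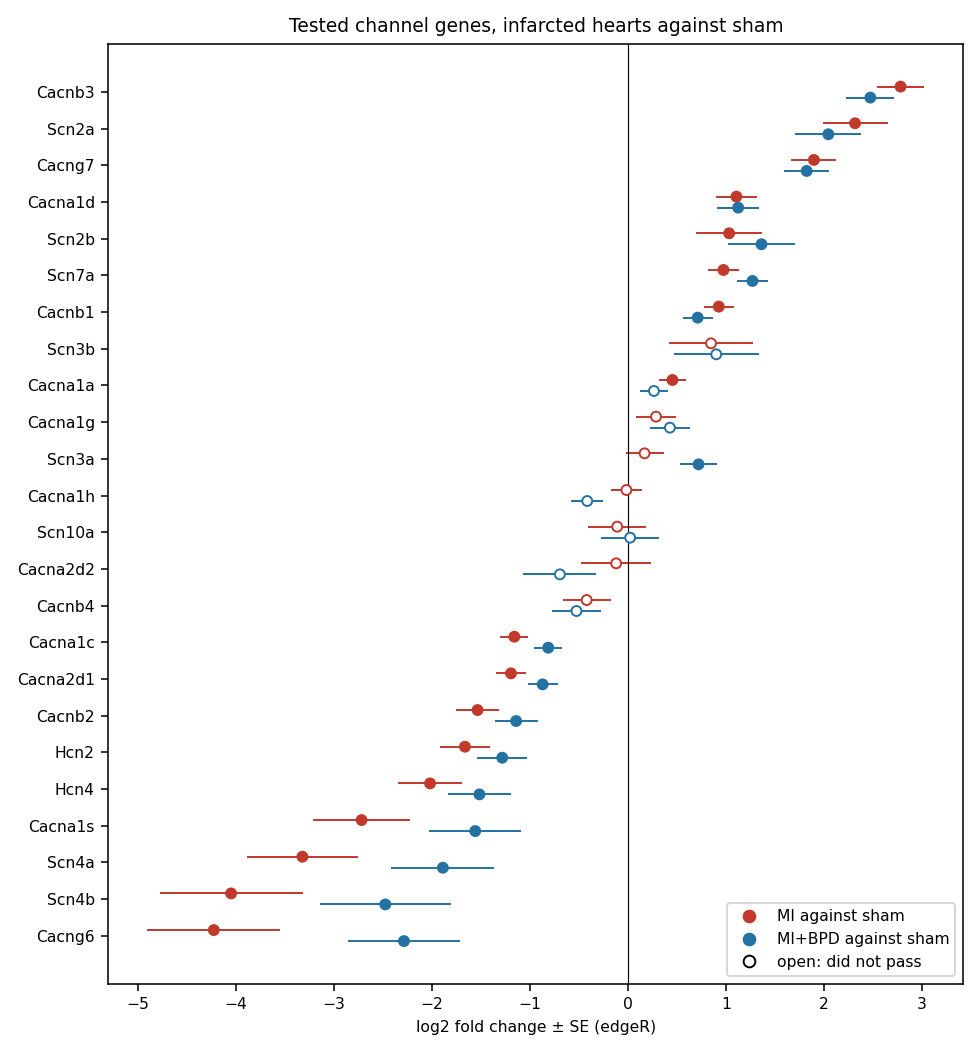
Log2 fold change ± SE (x axis) of 24 tested channel genes (y axis), with red for MI against sham and blue for MI+BPD against sham; filled points passed at an adjusted p under 0.05 and open points did not. Cacnb3 and Scn2a lie at the top and Cacng6, Scn4b, Scn4a and Cacna1s at the bottom, and the 2 sets of points share the sham libraries.

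Among the sodium channel pores, Scn4a (Nav1.4), the skeletal muscle form, measured 29, 31 and 41.7 CPM in the sham libraries, 3.33, 1.67 and 5.25 in those with MI, and 17.7, 3.64 and 6.45 in those with MI+BPD. Its sham libraries were all above the others, and the replicate 1 MI+BPD library stood well above its 2 fellows. Scn4a was 9.997-fold lower in MI (-3.32 ± 0.56, adjusted p = 0.000652), or -3.998 by limma-voom. Skeletal muscle genes were scarce, with 9 markers summing to between 2.93 and 11.1 CPM per library and the fast myosin gene Myh4 at most 0.0508 CPM.

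Scn7a, which encodes the atypical sodium sensor Nax, measured 49.4, 45.7 and 47.9 CPM in the sham libraries, 115, 78.9 and 87.9 in those with MI, and 94.5, 115 and 136 in those with MI+BPD. Every infarcted library was above every sham library. The log2 fold change was 0.98 ± 0.16 in MI (adjusted p = 0.000553). Scn2a (Nav1.2), a brain-type channel, was low in sham and measured 1.1, 0.35 and 1.14 CPM in the sham libraries, 4.08, 4.8 and 4.23 in those with MI, and 3.71, 2.87 and 4.27 in those with MI+BPD. It was 5-fold higher in MI (2.32 ± 0.33, adjusted p = 0.00026), without overlap of the groups.

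Scn3a (Nav1.3), another brain-type channel, measured 3.66, 3.76 and 4.12 CPM in the sham libraries, 3.52, 3.91 and 5.61 in those with MI, and 5.69, 6.57 and 6.81 in those with MI+BPD. Its value in MI was 0.17 (adjusted p = 0.449), with overlapping libraries. In MI+BPD it passed against sham (0.72 ± 0.19, adjusted p = 0.00996) but not against MI (0.55 ± 0.18, adjusted p = 0.369). Scn10a (Nav1.8), known from sensory neurons, was at 1.4 ± 0.306 CPM in sham and had a value of -0.11 in MI (adjusted p = 0.762). Scn1a, Scn8a, Scn9a and Scn11a did not reach the filter: none had more than 5 counts in a library, and Scn9a had none at all.

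Markers of nerve cells did not move as 1 group beside these neuronal channel genes. Of 14 neuron genes 5 were tested, of which Uchl1, Tubb3 and Prph rose and Dbh fell, while Snap25, Syt1 and Th were at most 0.119 CPM and Chat was listed at 0 in every library. The summed level of the list was 16.6 to 18.98 CPM in sham, 37.8 to 42.8 CPM in MI and 25.9 to 43.3 CPM in MI+BPD. Uchl1 alone had a mean of 4.46 CPM in sham and 25.5 CPM in MI. Stmn2 had the highest sham mean of the list, 6.89 CPM, against 4.98 CPM in MI, and did not pass (adjusted p = 0.0562). Of 8 Schwann cell genes, the glia of nerve, Sox10 and Erbb3 fell and Mbp and Prx rose, with a sum of 39.8 to 41.7 CPM in sham, 34.1 to 36.8 CPM in MI and 36.1 to 38 CPM in MI+BPD. Their part in the Scn2a and Scn7a values was not tested.

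The beta subunit genes Scn4b and Scn2b changed in opposite directions. Scn4b measured 51.8, 40.4 and 42.8 CPM in the sham libraries, 1.31, 1.51 and 5.48 in those with MI, and 15.6, 1.59 and 7.31 in those with MI+BPD, which put all sham libraries far above the rest. It was 16.6-fold lower in MI (-4.05 ± 0.73, adjusted p = 0.000912), with a log2 fold change of -4.995 without MI replicate 3, the highest MI library, and -4.74 by limma-voom. Scn2b, at 0.64, 0.612 and 0.534 CPM in the sham libraries, 1.35, 1.3 and 1.01 in those with MI, and 1.08, 1.33 and 2.18 in those with MI+BPD, was low and rose by 1.04 ± 0.34 (adjusted p = 0.0213). The Scn2b call was lost, at adjusted p values of 0.0516 to 0.0696, without sham replicate 2 or 3 or without MI replicate 1 or 2. Scn3b measured 0.64, 1.49 and 1.3 CPM in the sham libraries, 3.29, 1.22 and 1.7 in those with MI, and 2.28, 2.52 and 1.68 in those with MI+BPD and missed the threshold (adjusted p = 0.104), though not when MI replicate 2 was left out (0.0409). In RefSeq's GRCm38.p6 gene order Scn2b and Scn4b are direct neighbours on chromosome 9, and so 2 adjacent genes differed in direction.

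Among the calcium channel pores, Cacna1c (Cav1.2), the L-type channel of ventricular muscle, measured 317, 311 and 337 CPM in the sham libraries, 120.3, 140.3 and 172 in those with MI, and 207, 165 and 178 in those with MI+BPD. The sham libraries were all higher than the infarcted ones. It was 2.23-fold lower in MI (-1.16 ± 0.14, adjusted p = 0.000132), and -0.44 with library totals alone (adjusted p = 0.00298). Cacna1s (Cav1.1), the skeletal muscle L-type channel, measured 19.9, 16.7 and 12.6 CPM in the sham libraries, 1.94, 1.71 and 3.87 in those with MI, and 10.4, 3.13 and 3.3 in those with MI+BPD and was 6.58-fold lower in MI (-2.72 ± 0.50, adjusted p = 0.000985). The groups did not overlap, and the replicate 1 MI+BPD library was again the highest of the infarcted libraries.

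Cacna1d (Cav1.3), the L-type channel known from pacemaker and neuroendocrine cells, measured 3.2, 2.36 and 3.81 CPM in the sham libraries, 8.35, 6.07 and 5.89 in those with MI, and 7.79, 6.57 and 6.25 in those with MI+BPD. All infarcted libraries exceeded all sham libraries, and the log2 fold change was 1.11 ± 0.21 (adjusted p = 0.00127). Its exons overlap those of Chdh on the opposite strand in GENCODE M21, and how the count treated strand is not given in the sources used here. Exons of Cacna1h likewise overlap Tpsg1, and those of Cacna1a, Cacna1s, Cacna2d2, Cacnb1, Cacnb2 and Cacnb4 overlap opposite-strand genes that carry predicted or clone names. Cacna1a (Cav2.1), a presynaptic channel, rose by 0.46 ± 0.14 (adjusted p = 0.0157), a call lost without sham replicate 1 (adjusted p = 0.0539) and with DESeq2 (0.0572).

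The T-type genes did not pass. Cacna1g (Cav3.1) measured 14.9, 12.9 and 17.5 CPM in the sham libraries, 15.5, 15.2 and 24.7 in those with MI, and 17.6, 20.4 and 23 in those with MI+BPD, with overlapping sham and MI libraries and a value of 0.29 (adjusted p = 0.234). Cacna1h (Cav3.2) measured 7.23, 6.82 and 6.86 CPM in the sham libraries, 7.01, 6.39 and 7.32 in those with MI, and 6.65, 4.67 and 4.42 in those with MI+BPD and had -0.01 (adjusted p = 0.948), which became 0.72 (adjusted p = 0.00116) with library totals. For both, sham and MI libraries overlapped. Cacna1b, Cacna1e, Cacna1f and Cacna1i stayed under the filter. Cacna1e had 175 counts in the replicate 1 MI library and 1 to 10 in each other library, and Cacna1i had 37 there and 0 to 6 elsewhere. Without a filter on low counts, Cacna1i was also called higher.

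Of the calcium beta subunits, which bring the pore to the membrane, Cacnb2 is the main cardiac form and Cacnb3 a form found in many other tissues. Cacnb2 measured 82.9, 90.8 and 104 CPM in the sham libraries, 26.8, 26.1 and 42.9 in those with MI, and 53.9, 36.8 and 35.3 in those with MI+BPD. All sham libraries lay above the rest, and it was 2.89-fold lower in MI (-1.53 ± 0.22, adjusted p = 0.000275). Cacnb3 measured 2.2, 2.27 and 3.28 CPM in the sham libraries, 20.7, 20.2 and 13 in those with MI, and 12.8, 13.6 and 17.2 in those with MI+BPD. Every infarcted library was above every sham library, and it was 6.9-fold higher in MI (2.79 ± 0.24, adjusted p = 3.18e-05). Cacnb1 rose by 0.93 ± 0.15 (adjusted p = 0.000515) and Cacnb4 had -0.42 (adjusted p = 0.153; 0.00482 by limma-voom).

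Within this family Cacnb2 held 89.7% ± 0.696 of reads in sham and 51.5% ± 9.83 in MI, and Cacnb3 went from 2.49% ± 0.303 to 29.95% ± 9.48 (SD, n = 3). The log2 ratio of Cacnb3 to Cacnb2 was higher by 4.30 in MI, with no overlap. An exact 2-sided permutation test gave p = 0.1, the smallest value possible for 3 against 3. The shares are not corrected for gene length. The corresponding difference was 2.27 for Cacna1d over Cacna1c and 1.07 for Cacna2d2 over Cacna2d1, also without overlap. For Cacna1g over Cacna1h (0.28) and Scn3b over Scn2b (-0.15) the groups overlapped. Adjusted over the 8 pairs computed, the p of each of these pairs without overlap was 0.16.

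**Figure D2:**
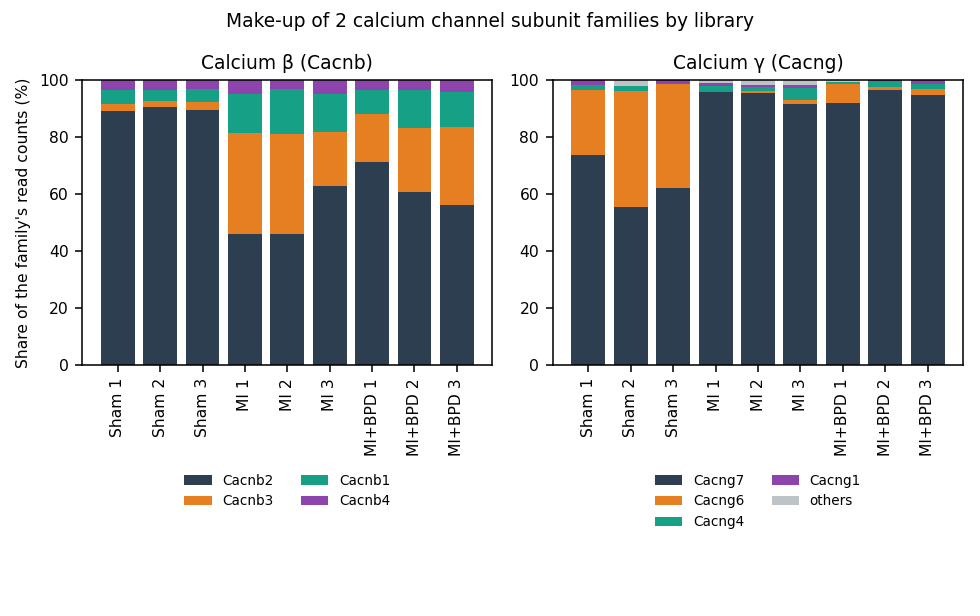
Share of each family's read counts (y axis, percent) taken by its subunit genes in each of the 9 libraries (x axis), for calcium beta and calcium gamma genes. Cacnb2 is near 90% of calcium beta reads in sham, and Cacnb3 takes a larger part in the infarcted libraries.

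Cacna2d1, the cardiac alpha2delta subunit, measured 373, 375 and 415 CPM in the sham libraries, 145, 155 and 209 in those with MI, and 241, 202 and 194 in those with MI+BPD and fell 2.28-fold (-1.19 ± 0.15, adjusted p = 0.000162). Sham did not overlap the infarcted groups. Cacna2d2 measured 2.2, 1.22 and 1.68 CPM in the sham libraries, 0.99, 1.47 and 2.26 in those with MI, and 1.32, 0.821 and 1.02 in those with MI+BPD, overlapped between all groups and did not pass (-0.12, adjusted p = 0.783). Cacna2d3 and Cacna2d4 were under the filter, with at most 9 counts in a library.

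Of the gamma genes, which include skeletal muscle calcium channel subunits and regulators of glutamate receptors, only Cacng6 and Cacng7 were tested. Cacng6 measured 1.19, 1.92 and 1.98 CPM in the sham libraries, 0, 0.0814 and 0.184 in those with MI, and 0.599, 0.154 and 0.305 in those with MI+BPD, that is 0 to 4 counts in the MI libraries, and was called lower (-4.23 ± 0.68, adjusted p = 0.000471). Its value was -3.64 without MI replicate 1 and -5.18 without MI replicate 3. Cacng7 measured 3.84, 2.62 and 3.35 CPM in the sham libraries, 12.5, 13.8 and 10.4 in those with MI, and 8.27, 12.4 and 14.1 in those with MI+BPD and rose 3.73-fold (1.90 ± 0.23, adjusted p = 0.000122). Neither overlapped between sham and MI. In RefSeq's order Cacng7, Cacng8 and Cacng6 follow each other on chromosome 7. Cacng1, Cacng2, Cacng3, Cacng4, Cacng5 and Cacng8 had at most 10 counts in any library.

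The windows of 250 bases before the start of Cacna2d1, which fell, and Cacng7, which rose, are shown because the 2 moved in opposite directions and each has a single annotated start in RefSeq with no exon in the window. They lie at chr5:15934441-15934690 and chr7:3332575-3332824, both on the plus strand of GRCm38.p6. Capitals mark GGGCGG, the GC box, and GGAATG, the M-CAT core, on either strand, and neighbouring matches of 1 motif can share a base. Cacna2d1 held 6 GC boxes, and Cacng7 held 1 of each.
Cacna2d1: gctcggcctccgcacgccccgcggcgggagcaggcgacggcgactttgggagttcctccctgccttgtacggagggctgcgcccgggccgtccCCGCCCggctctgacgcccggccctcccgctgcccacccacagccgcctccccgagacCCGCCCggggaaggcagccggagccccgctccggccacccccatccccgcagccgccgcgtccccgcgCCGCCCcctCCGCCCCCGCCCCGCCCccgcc
Cacng7: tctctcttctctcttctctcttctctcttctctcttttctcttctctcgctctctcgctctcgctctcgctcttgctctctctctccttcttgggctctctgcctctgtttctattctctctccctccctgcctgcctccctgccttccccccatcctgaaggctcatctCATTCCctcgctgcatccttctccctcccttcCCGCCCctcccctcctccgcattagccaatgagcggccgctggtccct

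The pacemaker channel genes Hcn2 and Hcn4 fell. Hcn2, the more abundant of them here, measured 22.8, 18.5 and 18.8 CPM in the sham libraries, 4.32, 5.74 and 8.97 in those with MI, and 10.3, 7.19 and 7.26 in those with MI+BPD. Sham libraries were all above the infarcted ones, and it was 3.16-fold lower in MI (-1.66 ± 0.25, adjusted p = 0.000364). Hcn4, the main sinus node form, measured 12.2, 11.2 and 13.3 CPM in the sham libraries, 2.34, 2.52 and 4.23 in those with MI, and 6.71, 3.13 and 3.1 in those with MI+BPD. It was 4.05-fold lower in MI (-2.02 ± 0.33, adjusted p = 0.000492), without overlap. Hcn3 had 1 to 3 counts per library and was not tested. The log2 ratio of Hcn4 to Hcn2 differed by -0.32 with overlapping groups (exact permutation p = 0.2).

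Hcn2 and Hcn4, which fell together, had single-start windows at chr10:79716384-79716633 and chr9:58822699-58822948 (plus strand, GRCm38.p6). They held 3 and 2 GC boxes, again in capitals, and no GGAATG, MEF2 or TATAAA match.
Hcn2: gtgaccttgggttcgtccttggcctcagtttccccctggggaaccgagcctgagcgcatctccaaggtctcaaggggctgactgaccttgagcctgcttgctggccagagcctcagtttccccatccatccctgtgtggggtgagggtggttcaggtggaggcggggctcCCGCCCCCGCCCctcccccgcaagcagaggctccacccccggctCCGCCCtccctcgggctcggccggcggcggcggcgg
Hcn4: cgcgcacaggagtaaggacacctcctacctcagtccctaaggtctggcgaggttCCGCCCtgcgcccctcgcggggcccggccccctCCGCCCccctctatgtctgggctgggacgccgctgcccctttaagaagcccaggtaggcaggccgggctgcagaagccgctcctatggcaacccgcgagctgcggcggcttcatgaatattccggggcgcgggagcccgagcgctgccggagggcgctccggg
Of 44 members 32 had RefSeq windows, 43 in all. A GC box was in 17 of these windows (39.5%), beside 32.7% of all 32851 windows of the same length. GGAATG was in 20.9%, beside 12.6%, TATAAA in 4.65%, beside 12.4%, and MEF2 in none, beside 2.92%. A match is a match of letters only.

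**Figure D3:**
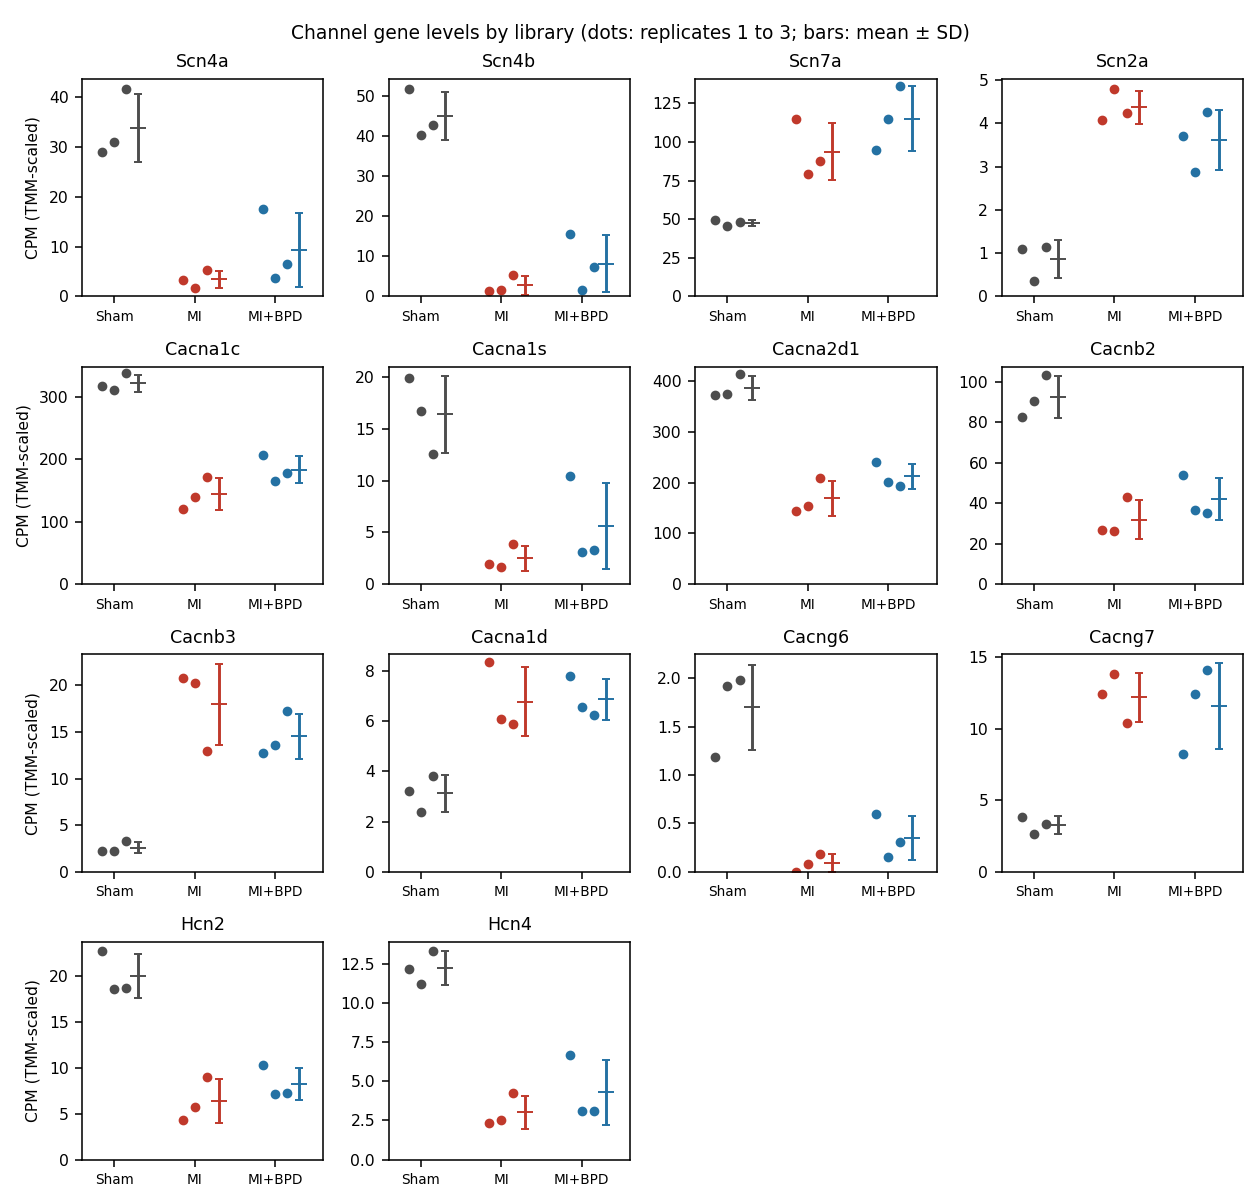
TMM-scaled CPM (y axes, linear from 0) of 14 channel genes in the sham, MI and MI+BPD libraries (x axes), with dots for replicates 1 to 3 and bars for mean ± SD. In most panels the sham dots are separate from the infarcted ones. The first MI+BPD dot is the highest infarcted value for Scn4a, Scn4b, Cacna1c, Cacna1s, Cacna2d1, Cacnb2, Cacng6, Hcn2 and Hcn4.

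Since the cardiomyocyte genes as a group were lower in the infarcted tissue, each member was also set against the mean log2 CPM of the 20 cardiomyocyte genes in its own library. On this scale 21 of the 27 members were higher in MI than in sham and 6 lower, with 19 and 5 not overlapping. The reference mean itself was lower by 1.65 in MI, which raises every gene alike. Of all tested genes 94.8% were higher and 5.21% lower on this scale, with 89.9% and 2.86% not overlapping. The 5 were Scn4b (-2.61), Scn4a (-1.74), Cacng6 (-1.61), Cacna1s (-1.07) and Hcn4 (-0.37). Cacna1c was at 0.48 and Cacna2d1 at 0.44, where the median of all tested genes was 1.73, and their signs follow from the subtraction. Hcn2 (-0.05) and Cacnb2 (0.09) overlapped between the groups. The exact permutation p cannot go below 0.1 here, and no adjusted value was under 0.1125.

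**Figure D4:**
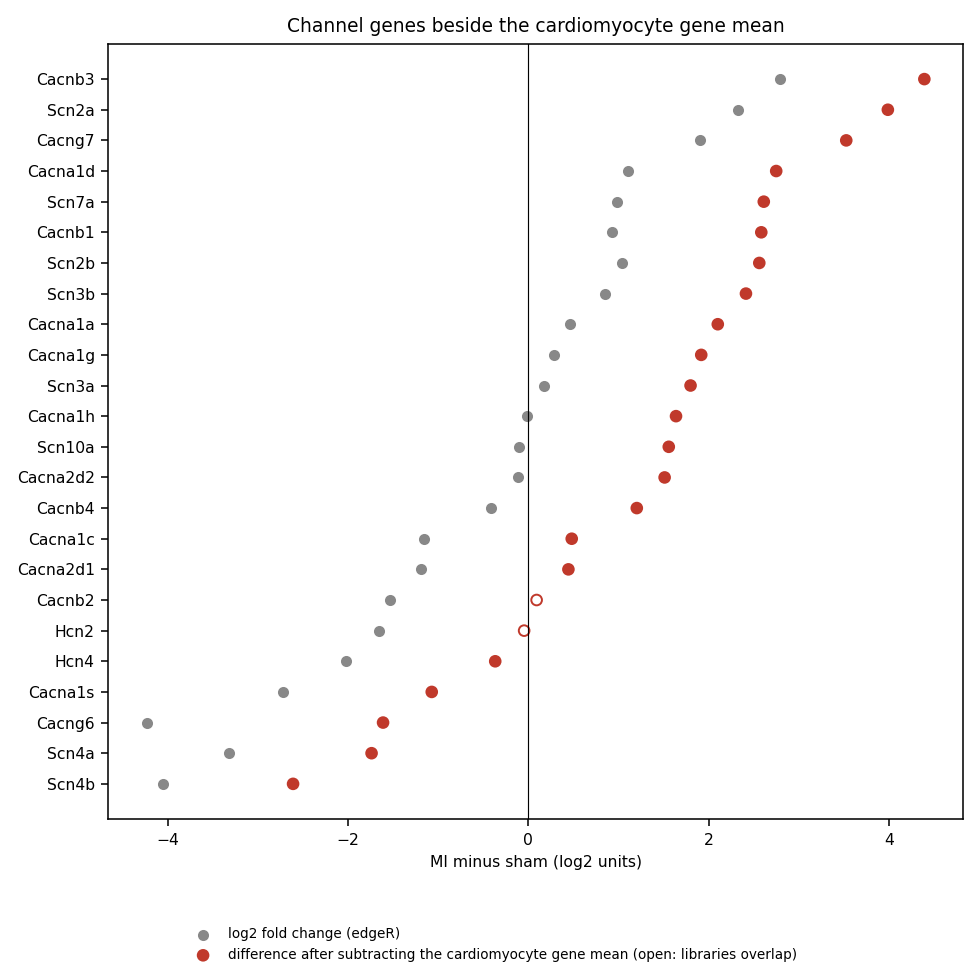
Log2 difference, MI minus sham (x axis), of 24 tested channel genes (y axis), from the edgeR fit (grey) and after subtracting the mean of 20 cardiomyocyte genes in each library (red; open where libraries overlap). Scn4b, Scn4a, Cacng6, Cacna1s and Hcn4 stay left of 0 in both.

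The question named in the series' design text is the effect of BPD given in the proliferative phase. In MI+BPD against MI 0 of 27 channel genes were called, as were 0% of all 15138 genes, by edgeR. At an unadjusted p under 0.05 there were 6 members and 13.5% of all genes. DESeq2 called 0 members and 0.0793% of all genes. Limma-voom with quality weights called 2 members higher (Scn7a, Scn3a) and 1 lower (Cacna1h), beside 6.55% of all genes. The 6 were Scn3a (0.55 ± 0.18), Scn4a (1.43 ± 0.56), Cacna1h (-0.40 ± 0.16), Cacng6 (1.94 ± 0.79), Cacna1c (0.35 ± 0.14) and Cacna1s (1.16 ± 0.50), each at an adjusted p of 0.369. Scn4b had 1.57 ± 0.73 (adjusted p = 0.376). Only Scn3a and Cacna1a had libraries that did not overlap, 2 of 27 beside 13.9% of all genes. Of the 8 subunit ratios, 7 overlapped between MI+BPD and MI, and Cacna2d2 over Cacna2d1 differed by -0.82 without overlap (exact permutation p = 0.1, adjusted 0.533).

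Scn4a, Scn4b, Cacna1s and Cacng6 were higher in the replicate 1 MI+BPD library than in any other infarcted library. The same held for Cacna1c, Cacna2d1, Cacnb2, Hcn2 and Hcn4. This library also had the highest cardiomyocyte mean of the infarcted libraries. Without MI replicate 3, Cacna2d1 (0.50, adjusted p = 0.0387), Cacna1c (0.49, 0.041) and Scn3a (0.78, 0.0334) were called higher, beside 8.76% of all genes. With MI replicate 3 and MI+BPD replicate 1 both left out, an alternative chosen after the data were seen, 6 members were called higher and 1 lower, beside 10.3% of all genes. Set against the cardiomyocyte gene mean, MI+BPD minus MI was 0.75 for Scn4b, 0.68 for Scn4a, 0.65 for Cacng6 and 0.42 for Cacna1s. It was -0.12 for Hcn4, -0.15 for Hcn2, -0.16 for Cacnb2, -0.21 for Cacna1c and -0.23 for Cacna2d1. Of these only Cacnb2 had groups that did not overlap. The reference mean itself was higher by 0.57 in MI+BPD, which lowers every gene alike. The part of cardiomyocyte RNA in any of these values was not tested.

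In MI+BPD against sham 9 channel genes were called higher and 11 lower, beside 59.6% of all genes called, 31.8% higher and 27.8% lower. Groups did not overlap for 25 of 27 members and for 68.5% of all genes. At least 2-fold changes were called for 7 higher and 8 lower members, beside 17.3% and 7.77% of all genes. Scaled by library totals alone, 12 members were called higher and 10 lower, beside 60.3% and 9.14% of all genes. The falls included -2.48 for Scn4b, -2.28 for Cacng6, -1.89 for Scn4a, -1.56 for Cacna1s, -1.51 for Hcn4, -1.28 for Hcn2, -1.14 for Cacnb2, -0.87 for Cacna2d1 and -0.81 for Cacna1c. The rises included 2.48 for Cacnb3, 2.05 for Scn2a, 1.83 for Cacng7, 1.37 for Scn2b, 1.27 for Scn7a, 1.13 for Cacna1d, 0.72 for Scn3a and 0.71 for Cacnb1. Cacna1a did not pass (0.27, adjusted p = 0.143), nor did Scn3b (0.90), Cacna1g (0.43), Scn10a (0.02), Cacna1h (-0.41), Cacnb4 (-0.52) and Cacna2d2 (-0.69). Of these Cacna1h passed with DESeq2 (adjusted p = 0.0413) and without MI+BPD replicate 1 (-0.65, 0.00287), and Scn3b, Cacna1g and Cacnb4 passed when sham and MI+BPD were fitted alone (0.0381, 0.0256 and 0.0374). Scn3b passed without MI replicate 1 (0.0424), Cacna1g without MI replicate 3 (0.0214) and Cacnb4 without MI replicate 2 (0.0331). Without MI+BPD replicate 1 the values were -3.37 for Scn4b, -2.89 for Cacng6, -2.78 for Scn4a and -2.38 for Cacna1s. By limma-voom they were -3.45 for Scn4b, -2.63 for Scn4a and -2.14 for Cacna1s. The Cacna1s call was lost without sham replicate 1 or MI+BPD replicate 2 or 3. The call of Scn4a (adjusted p = 0.0559) was lost without MI+BPD replicate 3. Without a filter on low counts the calls of Scn4b (adjusted p = 0.0756), Scn4a (0.0817) and Cacna1s (0.092) were lost.

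Genes for proteins that bind or regulate these channels were described from lists. All 13 sodium channel partners were tested in MI against sham, 2 rose and 11 fell, with a median of -0.97 beside 0.07 for all genes. Fgf13, an intracellular modulator of sodium channel gating, had -1.80 ± 0.22, Gpd1l, which affects its trafficking, had -1.04 ± 0.13, and Ank3, which encodes the anchor ankyrin-G, had -0.89 ± 0.11, all falls. The Ank3 value was -0.16 (adjusted p = 0.125) with library totals alone. The risers were Fgf11 (0.71 ± 0.14) and Fgf12 (3.40 ± 0.93), named after their values were seen. Fgf12 was scarce, at 0 to 0.183 CPM in the sham libraries and 0.396 to 1.01 CPM in those with MI. Of 15 calcium channel partners tested 8 rose and 4 fell (median 0.44). Of all tested genes 37.0% were called higher and 31.9% lower in this comparison. Gem, a GTPase that restrains the L-type channel, rose by 1.55 ± 0.10 and Bin1, which organizes T-tubules, by 1.26 ± 0.12, whereas Akap7, an anchor for protein kinase A, had -1.10 ± 0.14 and its catalytic subunit gene Prkaca -1.25 ± 0.17.

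Of the pacemaker partners, Lrmp rose by 1.61 ± 0.38 (1.06 without MI replicate 1), and Pex5l (-0.41, adjusted p = 0.661) and Mrvi1 (0.01) did not pass. The Pex5l value was -2.43 (adjusted p = 0.00191) without MI replicate 1. Of 13 transcription factors of channel genes tested, 3 rose and 8 fell (median -0.55), beside 37.0% and 31.9% of all genes. Tbx18 and Shox2, factors of sinus node development, rose by 1.92 ± 0.21 and 2.92 ± 0.36, where Shox2 went from 0.508 ± 0.147 to 3.88 ± 0.775 CPM (SD, n = 3). Tbx5, a factor of cardiac conduction, had -1.34 ± 0.16 and Mef2a -0.68 ± 0.12, both falls, the latter turning to 0.0508 with library totals alone. In the same libraries the sinus node gene Isl1 was at most 0.515 CPM, and 4 of 6 tested conduction system genes rose while Tbx3 and Irx3 fell. Their part in the Hcn4 and Cacna1d values was not tested.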

How the data were processed

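The members and lists were chosen with earlier results of these data known, so no pattern here is independent support for a list. Sequencing was paired-end over 150 bp, and the values are whole-number read counts per gene symbol, deposited by the authors without normalization. Per the submitters' processing notes STAR was used and the builds mm10, GRCm39 and mm39 are named without a role. How reads were counted, with which annotation and strand, is not given in the sources used here, so genes are given by symbol. Lengths are exon unions of GENCODE M21, and promoter windows are from RefSeq (GRCm38.p6).

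Counts were fitted in R 4.3.3 with edgeR 4.0.16 (quasi-likelihood, robust, trimmed mean of M values scaling, filterByExpr with minimum count 10 and total 15) over all 9 libraries by group. Tests were 2-sided, adjusted by Benjamini-Hochberg over 15138 genes, and called at an adjusted p under 0.05. The procedure was tested on simulated data. Ratios used log2 CPM with prior count 2. Nothing in the labels says that libraries came from separate animals, so p-values measure only the spread between these samples. Counts carry no molecular identifiers. Alternatives were DESeq2 1.42.0, limma 3.58.1 voom with quality weights, other scalings, filters and thresholds, a replicate block, and libraries left out.

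Genes were named by rule: all tested members, library values for members called in MI against sham with a log2 change of at least 1 and at least 1 CPM, for members of 8 ratios and for the 3 of smallest p in MI+BPD against MI, and up to 4 genes of smallest adjusted p per partner or factor list. Library values of Scn7a and Cacna1h follow from ratios. Some genes are not reported here, though whole-list counts include them. Cacng6 meets the rule by its sham mean.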

Additional observations from a re-analysis of the deposited data

How the results depend on the processing

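Of 1887 log2 fold changes under alternatives, 20 lost and 42 gained a call, and 60 that passed neither in the fit reported nor under the alternative changed sign, none of them larger than 0.62. A further 2 that passed in at least 1 of the fits turned direction, both with library totals as the only scaling: Cacna1h in MI against sham from -0.01 to 0.72 and Mef2a from -0.68 to 0.0508. When 1 library was left out, 8 to 10 members were called higher and 11 lower in MI against sham, beside 61.4% to 68.6% of all genes called. In MI+BPD against sham 9 to 10 were called higher and 8 to 12 lower, beside 48% to 59.5%. At an adjusted p under 0.01 the latter comparison had 9 higher and 7 lower, beside 43.1%. In MI+BPD against MI, limma-voom called 2 members higher and 1 lower, beside 6.55% of all genes. Leaving out 1 library gave 0 to 3 higher and 0 lower, beside 0% to 8.76%. Leaving out MI replicate 3 with MI+BPD replicate 1 gave 6 and 1, beside 10.3%. The cause was not tested. The replicate block called 9 higher and 11 lower in MI against sham, 0 in MI+BPD against MI, and 10 higher and 11 lower in MI+BPD against sham. Of all genes it called 66.4%, 0% and 55.9% in the same order. Deviations of equally numbered libraries from their group means correlated at -0.158 to 0.194. Unequally numbered libraries were not compared, so these values cannot show whether the replicate numbers pair the libraries. A single read was worth 0.0396 to 0.0915 CPM, which limits the precision of genes near the filter.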
